A study of Mus musculus with 3 samples.

Results

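The regions described here are places deep inside genes where NKX2-5, a cardiac homeodomain protein, was found on chromatin of the embryonic mouse heart. They were chosen by the measured peaks of both libraries together with gene annotation. A peak of one list had to overlap a peak of the other by at least 1 bp, linked pairs were merged, and the midpoint of the stretch common to both peaks had to lie in an intron of a GENCODE M1 gene and more than 20 kb from every annotated transcript start. The rule found 496 of 2546 shared regions (19.5%, 95% Clopper-Pearson interval 18 to 21.1), and 47.9% of the 1036 shared regions that lay in introns. Wild-type hearts of Parkes mice at E11.5, an outbred strain, were used whole, so that all cell types of the heart contributed. The samples were 2 NKX2-5 chromatin immunoprecipitation (ChIP) libraries, S1 and S4, and 1 Input library, which was not analysed here. All 3 came from the same stage, strain and tissue, with no treatment. Only the ChIP libraries, which form 1 group, were analysed, so no comparison between groups was made and no test was run, and all shares and medians below are descriptions. Regions are ranked throughout by the smaller of their scores in S1 and S4.

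Introns are transcribed and then removed from the RNA, and the long introns of mammalian genes are known to hold enhancers, which are stretches of DNA that bind transcription factors and can act on the host gene or on a neighbour. The binding core of NKX2-5 is AAGTG, and a longer form reads TNAAGTG. MEIS1 is a homeodomain factor of another class (TALE), whose core is TGACA. In the spaced pair GTGNTGACA only the last letters of the NKX2-5 core, GTG, stand 1 base from TGACA, and the full AAGTG is not required. In AAGTGACA the cores overlap. These letters were searched as exact matches on both strands in windows of 201 bp centred on the midpoint, since summits were not used here.

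The windows of 9 regions are printed to show what DNA lay under the highest scores and under the combined motifs. They comprise 7 of the 8 regions with the highest scores in both lists (Srgap1 to Pde4b) and the highest-scoring regions that held both TNAAGTG and GTGNTGACA (Myh11, Smyd3 and Tmtc1). Each is named by its host gene, read from the plus strand of mm9, and has matches of both cores and of the spaced pair in capitals. A match of the NKX2-5 core on the minus strand appears as CACTT, and one of the MEIS1 core on that strand appears as TGTCA.
Srgap1 chr10:121462525-121462725: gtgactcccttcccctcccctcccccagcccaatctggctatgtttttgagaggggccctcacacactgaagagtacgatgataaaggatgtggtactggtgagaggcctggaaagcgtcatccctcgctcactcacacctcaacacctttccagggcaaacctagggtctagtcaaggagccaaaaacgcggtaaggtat
Sipa1l3 chr7:30246667-30246867: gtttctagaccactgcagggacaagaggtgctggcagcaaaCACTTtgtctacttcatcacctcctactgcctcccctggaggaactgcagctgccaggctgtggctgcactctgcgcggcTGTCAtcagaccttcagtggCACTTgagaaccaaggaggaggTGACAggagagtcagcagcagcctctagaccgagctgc
Gja5 chr3:96866868-96867068: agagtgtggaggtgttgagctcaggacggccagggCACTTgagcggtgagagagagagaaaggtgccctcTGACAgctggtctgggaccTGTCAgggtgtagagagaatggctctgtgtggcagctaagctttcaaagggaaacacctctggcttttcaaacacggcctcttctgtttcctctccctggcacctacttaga
Myh11 chr16:14265568-14265768: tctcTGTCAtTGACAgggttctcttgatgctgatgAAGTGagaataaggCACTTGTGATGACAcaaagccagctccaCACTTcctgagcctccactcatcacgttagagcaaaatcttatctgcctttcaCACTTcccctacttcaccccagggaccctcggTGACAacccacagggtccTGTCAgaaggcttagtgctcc
Gm12824 chr4:114173700-114173900: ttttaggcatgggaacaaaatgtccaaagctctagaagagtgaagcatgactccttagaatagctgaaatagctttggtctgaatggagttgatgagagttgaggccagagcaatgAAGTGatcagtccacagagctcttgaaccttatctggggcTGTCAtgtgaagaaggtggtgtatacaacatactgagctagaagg
Ptk2 chr15:73055172-73055372: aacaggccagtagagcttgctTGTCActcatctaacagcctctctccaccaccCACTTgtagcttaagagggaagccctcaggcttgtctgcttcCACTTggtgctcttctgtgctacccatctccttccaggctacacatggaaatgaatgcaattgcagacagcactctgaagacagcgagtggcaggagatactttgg
Pde4b chr4:101848850-101849050: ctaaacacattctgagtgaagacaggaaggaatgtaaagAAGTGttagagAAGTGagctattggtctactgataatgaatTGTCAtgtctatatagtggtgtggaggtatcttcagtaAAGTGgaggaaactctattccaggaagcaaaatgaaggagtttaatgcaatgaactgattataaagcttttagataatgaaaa
Smyd3 chr1:181364627-181364827: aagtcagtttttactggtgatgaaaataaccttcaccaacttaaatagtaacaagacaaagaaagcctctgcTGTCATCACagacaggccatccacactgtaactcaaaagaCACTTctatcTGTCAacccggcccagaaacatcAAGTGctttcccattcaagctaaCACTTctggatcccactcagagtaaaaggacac
Tmtc1 chr6:148276759-148276959: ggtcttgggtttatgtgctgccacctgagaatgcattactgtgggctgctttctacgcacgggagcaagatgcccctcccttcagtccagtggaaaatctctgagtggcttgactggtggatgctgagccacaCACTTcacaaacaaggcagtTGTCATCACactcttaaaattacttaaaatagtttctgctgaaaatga

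The windows differed in what they held. In Myh11, the smooth muscle myosin heavy chain, a minus-strand AAGTG ended at position 14265621 and the spaced pair GTGATGACA began at the next base, and the window held 4 matches of AAGTG and 5 of TGACA in all. Smyd3, a lysine methyltransferase, and Tmtc1 held the same spaced pair on the minus strand, centred 24 bp before and 57 bp after the midpoint. The window of Srgap1, a GTPase-activating protein of the Slit and Robo pathway, held neither core although its peaks had the highest score in both lists. The nearest TGACA and AAGTG of Srgap1 were centred 121 and 127 bp from the midpoint, and its shared stretch of 1035 bp held 4 matches of AAGTG and 3 of TGACA. None of the 9 windows touched an annotated exon.

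The score of a peak is its p-value from the peak caller as a negative log10, multiplied by 10, and it is not scaled between libraries. Srgap1 and Sipa1l3, a Rap GTPase-activating protein, had 3100 in S1 and in S4, the highest value of either list. Shared regions in introns near a start and in intergenic sequence within 100 kb also reached 3100 in both libraries. It may therefore be an upper limit of the score. Regions at this value cannot be ranked against one another by it. Gja5, which encodes connexin 40 of atrial and conduction gap junctions, scored 2369.5 in S1 and 2978 in S4. Myh11 scored 2148 in S1 and 2964 in S4. These peaks stood far above the middle of the regions, whose median was 299 in S1 and 332 in S4.

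Gm12824, which RefSeq now names Trabd2b, a metalloprotease that inactivates WNT proteins, scored 2119 and 2479.95 in S1 and S4. Bin1 on chromosome 18, a membrane-shaping protein of the transverse tubule, scored 1745 and 2038. Ptk2, the focal adhesion kinase, scored 1999.6 and 1631, and lay in intron 26 of 31, 90.9% of the way along its host. Pde4b, a cyclic AMP phosphodiesterase, held a region with 1724 and 1611 and a second with 2191 and 1555, whose midpoints were 1.09 kb apart. In these 8 highest regions S4 was the higher library in 4, S1 in 2 and both stood at 3100 in 2. At the other end, 1700025G04Rik had 140.01 and 155, Esrrg, an orphan nuclear receptor, 140.1 and 263, and Oxr1 140.4 and 305, beside lowest scores of 140.01 in S1 and 140.02 in S4.

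**Figure D1:**
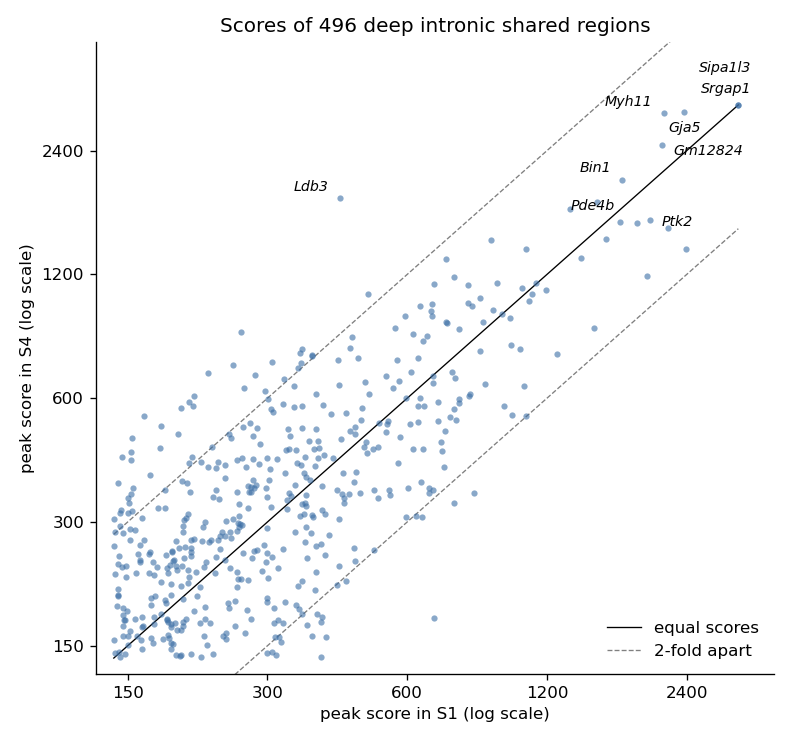
Peak score in S1 (x axis, log scale) against S4 (y axis, log scale) for the 496 deep intronic shared regions, 1 point per region, with lines of equal scores and of scores 2-fold apart. Most points (87.5%) lie within the dashed lines, Srgap1 and Sipa1l3 coincide at 3100, and Ldb3 stands above the dashed line with 431 in S1 and 1841 in S4.

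Scores of the libraries were close for most regions. S4 was higher in 288 regions and S1 in 206. S4 over S1 had a median log2 ratio of 0.13 (0.07 to 0.19), beside 0.16 over all shared regions. That interval takes regions as units, so it does not measure how libraries vary. In 434 of 496 regions (87.5%, 84.3 to 90.3) the scores were within 2-fold, beside 85.7% of all shared regions. The depth of the libraries is unknown, and the part of depth in these differences was not tested. Peaks were narrow, with a median width of 676 bp in S1 and 846 bp in S4, and the widest were 1349 bp and 4214 bp. The widest S4 peak was at Ldb3, which encodes a Z-disc protein of the sarcomere. It was also the region where S4 exceeded S1 most, with 431 in S1 against 1841 in S4. There the S4 peak overlapped 2 peaks of S1, and 431 is the score of 1 of them.

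Of all S1 peaks with a midpoint deep in an intron, 499 of 801 (62.3%, 58.8 to 65.7) overlapped an S4 peak, beside 58.9% of all S1 peaks. In S4 it was 498 of 933 (53.4%, 50.1 to 56.6), beside 47.0% of all S4 peaks. This overlap is what the regions were selected on. Deep intronic peaks without a partner had median scores of 167 in S1 and 184 in S4, against 297 and 332 for those with one.

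Host genes numbered 398, of which 382 were protein-coding, and 323 held 1 region. Another 58 held 2 regions, 13 held 3, 2 held 4 and 2 held 5. Smyd3 and Macrod2 had the most. The 5 regions of Smyd3 spread over introns 1, 5 and 8, and 1 of them stood out with 812 in S1 and 1025 in S4, while the others lay between 158 and 244 in either library. The 5 regions of Macrod2, which encodes an ADP-ribose hydrolase, spread over introns 4, 5 and 8 and were more even, between 275 and 726 in S1 and between 519 and 917 in S4.

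Tbc1d22a, a protein with a Rab GTPase-activating domain, held 4 regions in its introns 11 and 12, with scores from 235 to 647 in S1 and from 249.9 to 451 in S4. Auts2 held 4 regions, in introns 1, 2 and 4, with scores from 160 to 573 in S1 and from 185 to 418 in S4. Gm12824 held 3 in its intron 2, with 2119, 285 and 146 in S1 and 2479.95, 507 and 432 in S4. 1700112E06Rik, now Lrmda, held 3 regions, the highest with 862 and 1054. Within 5 kb of one another lay 13 pairs of regions, and in all 13 both had the same host. The limit of 20 kb leaves no transcript start between such regions, so a shared host is largely set by the rule. The closest were in Itga1, an integrin chain, with midpoints 1.04 kb apart.

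The regions lay 20.1 to 546 kb from the nearest transcript start, with a median of 46.0 kb. In 289 (58.3%) that start belonged to the host and in 207 (41.7%) to another gene, small RNA genes and pseudogenes included. The farthest was in Dcc, a netrin receptor on chromosome 18, 546 kb from any start, with 160 in S1 and 243 in S4. Next were Sorcs3, a sorting receptor, at 525 kb with 331 and 340.1, and Ptprd, a receptor tyrosine phosphatase, at 468 kb with 198 and 294. Beside the 20 kb limit, Gm12023 (20.055 kb, scores 411 and 550.3) and Ascc1 (20.059 kb, 326 and 666) were just inside, and Rab3gap2 (19.969 kb, 340.01 and 293) and D19Bwg1357e (19.713 kb, 565 and 841) just outside.

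Counted along the longest transcript of the host with an intron at the midpoint, 109 regions (22.0%, 18.4 to 25.9) were in the first intron and 256 (51.6%, 47.1 to 56.1) in the fourth or a later one. Where that transcript had at least 4 introns, 20.3% were in the first. The rule leaves out sequence within 20 kb of any start, and the eligible sequence was not divided by intron number. These shares therefore cannot show whether early or late introns were preferred. The introns were long, with a median of 53.9 kb, and the median region was 11 kb from the nearest exon edge. An intron over 1000 kb held 7 regions, in the annotated models of Arfip1, Fgfr2 and Gm20388. Only GENCODE M1 was used, and in annotation without such models these regions may count as intergenic. Of the 398 hosts, 14 (3.52%) also had a shared region within 1 kb of a start of their own. In 70 (17.6%) there was one in an intron nearer to a start. Other genes were not counted in this way, so these shares have no background and say nothing particular about the hosts.

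**Figure D2:**
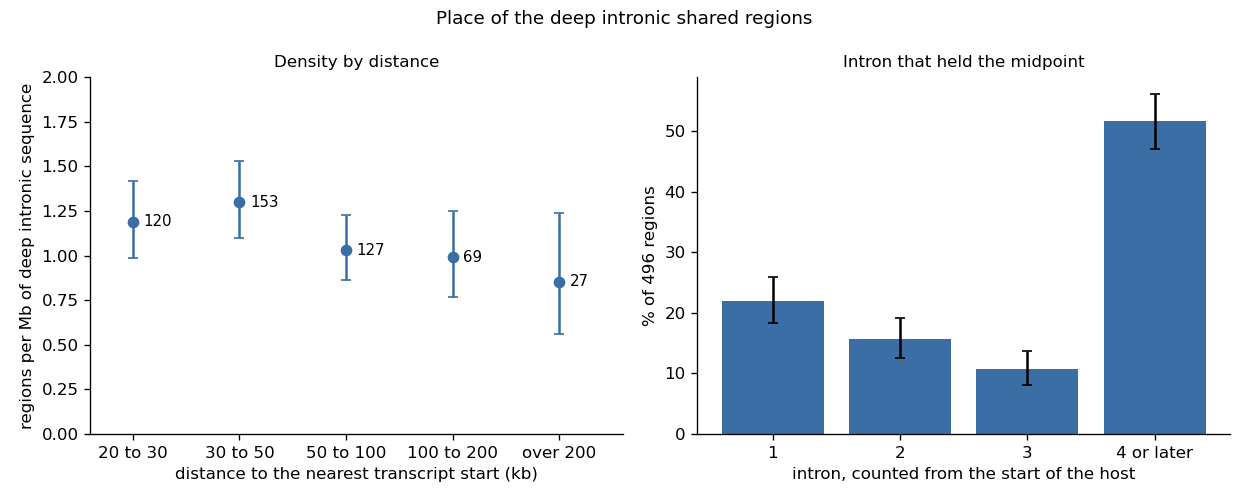
Left, deep intronic shared regions per Mb of deep intronic sequence (y axis) by distance to the nearest transcript start in kb (x axis), with 95% Poisson intervals and the number of regions beside each point. Right, percent of the 496 regions by intron of the host (x axis) with 95% Clopper-Pearson intervals. Density was between 0.854 and 1.30 per Mb in all 5 classes of distance, whose intervals overlapped. In the fourth or a later intron lay 51.6% of regions, and the eligible sequence was not divided by intron number.

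Over the 443 Mb of intronic sequence that met the same position rule there were 1.12 regions per Mb (exact Poisson interval, 1.02 to 1.22). Introns within 20 kb of a start had 1.14 (1.04 to 1.24) shared regions per Mb. Promoters, within 1 kb of a start, had 4.11. Intergenic sequence had 0.752 (0.700 to 0.808) within 100 kb of a start and 0.508 (0.445 to 0.577) beyond, below both kinds of intron. Within the deep introns density was 1.19 (0.986 to 1.42) at 20 to 30 kb from a start and 0.854 (0.563 to 1.24) beyond 200 kb.

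Most regions held the letters of one core or both. AAGTG was in 348 of 496 windows (70.2%, 65.9 to 74.2), against 38.8% (35.8 to 41.9) of 992 windows of the same length 2 kb to either side. TNAAGTG was in 37.1% against 10.5% of the flanks. TGACA was in 355 windows (71.6%, 67.4 to 75.5) against 42.7% (39.6 to 45.9). The spaced pair GTGNTGACA was in 54 windows (10.9%, 8.29 to 14) against 6 flanks (0.605%, 0.222 to 1.31), and AAGTGACA in 16 (3.23%, 1.85 to 5.19) against 13 (1.31%, 0.700 to 2.23), the only one of these with overlapping intervals. Because AAGTG lies within TNAAGTG and TGACA within GTGNTGACA and AAGTGACA, these counts share windows. The motifs were chosen with earlier results of these data known. The part of that choice in the shares was not tested.

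AAGTG and TGACA stood together in 256 windows (51.6%, 47.1 to 56.1), against 17.4% of flanks, and both were lacking in 49 (9.88%, 7.40 to 12.8), against 35.9%. The other shared regions outside promoters had both cores in 48.2% (45.7 to 50.7) and neither in 10.5% (9.08 to 12.1) of 1614 windows, near the shares in the deep introns. The windows were also richer in G and C than their flanks, with medians of 48.8% and 44.3%, and the part of base composition in these shares was not tested. Of the 49 regions without a core in the window, 43 held one elsewhere in the stretch common to both peaks. In all, 490 of 496 regions (98.8%) held AAGTG or TGACA somewhere in that stretch. Its median length was 616 bp, and longer sequence holds such short motifs more often. Flanks of such length were not searched, so these counts have no background beside them. After Srgap1 the highest of the 49 by the smaller score were Prdm16, with 1061 and 1112, and 2810011L19Rik, with 1050.5 and 791. 2810011L19Rik was singled out after its values were seen.

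**Figure D3:**
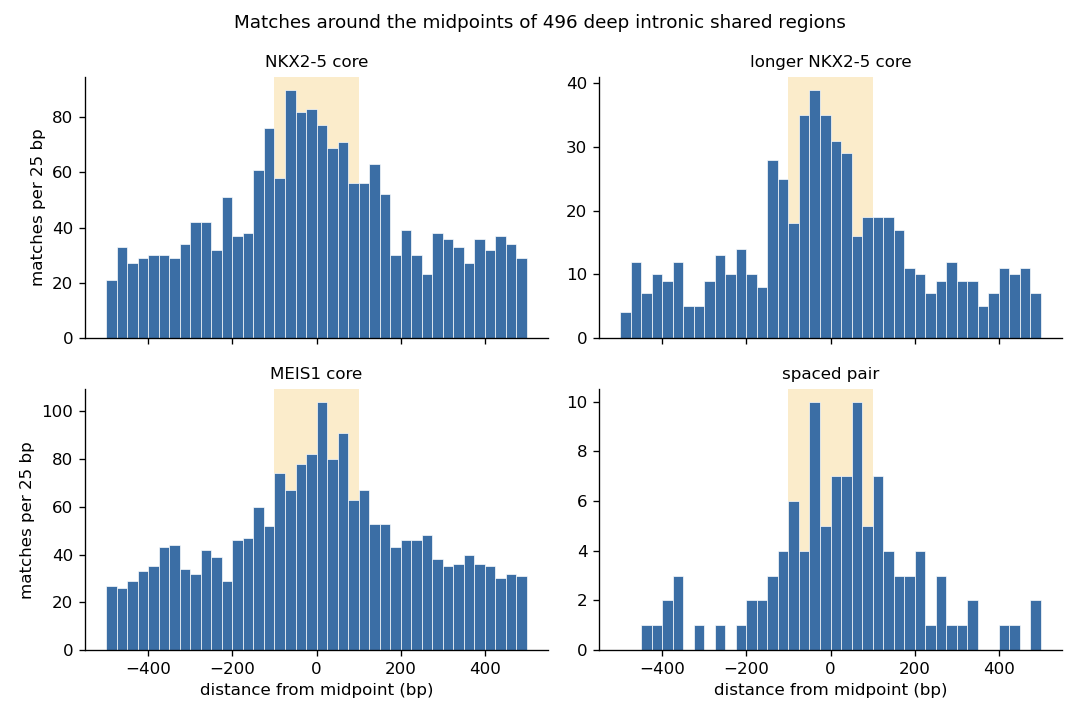
Matches per 25 bp (y axis) against distance from the midpoint in bp (x axis, 500 bp to either side) for the NKX2-5 core, the longer NKX2-5 core, the MEIS1 core and the spaced pair, summed over 496 regions, with the 201-bp window shaded. Matches of all 4 gather within about 150 bp of the midpoint, with no sharp peak at 0.

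Matches of the cores were densest near the midpoint and thinned out over a broad stretch. AAGTG had 56 to 90 matches per 25 bp within 100 bp of the midpoint and 21 to 37 beyond 400 bp. TGACA had 63 to 104 within 100 bp and 26 to 35 beyond 400 bp. GTGNTGACA had 4 to 10 per 25 bp within 100 bp, and beyond 400 bp 0 to 2.

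A spacing of 1 base was the most frequent of 11 searched. The paper describes a motif, found at the summits of binding regions from the same libraries, that appears to be a hybrid of both factors' sites. The spaced pair was chosen with earlier results of these data known, so the search was not blind to it. The part of that choice in the lead of this spacing was not tested. With 0 bases between GTG and TGACA, 2.82% of windows had a match, with 1 base 10.9%, and with 2 to 10 bases between 2.02% and 4.64%. In the flanks the 11 spacings lay between 0.302% and 1.51%. The base between GTG and TGACA was A in 15 of 54 matches, C in 12, G in 12 and T in 15. Directly before GTG stood A in 35.2% of the 54, and 1 base further out in 16.7%. Most matches of the spaced pair thus did not hold the full AAGTG. The base after TGACA was G in 37 of the 54 (68.5%). Over all TGACA matches it was G in 283 of 634 (44.6%, 40.7 to 48.6) in the windows and in 170 of 564 (30.1%, 26.4 to 34.1) in the flanks. Likewise, T stood 2 bases before AAGTG in 220 of 579 matches (38.0%, 34.0 to 42.1), against 22.6% (19 to 26.6) in the flanks.

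Combined motifs were found at high and at low scores. Beside Myh11, both TNAAGTG and GTGNTGACA were in 16 other windows, 17 in all (3.43%), led by Smyd3 (812 and 1025) and Tmtc1 (374 and 766). The overlapped cores AAGTGACA were led by Lrfn2, a synaptic adhesion protein, with 1518 and 887. Next were Negr1, a neuronal adhesion protein, with 759 and 672, and Ttc28, with 681 and 652. When the regions were put into 4 equal groups by the smaller score, TNAAGTG or GTGNTGACA was in 37.9% (29.3 to 47.1) of the lowest and 52.4% (43.3 to 61.5) of the highest group. The spaced pair was in 7.26% and 15.3% of them, with intervals of 3.37 to 13.3 and 9.48 to 22.9. Both pairs of intervals overlap.

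Shares of either core overlapped in their intervals across all classes of distance. AAGTG was in 66.7% of windows at 20 to 30 kb, 75.2% at 30 to 50 kb, 67.7% at 50 to 100 kb and 69.8% beyond. TGACA was in 72.5%, 69.9%, 71.7% and 72.9% of the same classes.

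Letters of other cardiac factors were less frequent. The GATA motif AGATAA was in 20% (16.5 to 23.8) of windows against 10.8% (8.92 to 12.9) of flanks, the TEAD motif CATTCC in 16.3% (13.2 to 19.9) against 11.3% (9.39 to 13.4), and the E-box CATCTG of HAND and related factors in 21% (17.5 to 24.8) against 16.2% (14 to 18.7). The intervals were apart for the GATA motif and overlapped for the others. The T-box motif AGGTGTNA was in 5.24% against 4.13%, the MEF2 consensus in 4.23% against 4.84% and the SRF consensus in 1.61% against 0.907%.

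**Figure D4:**
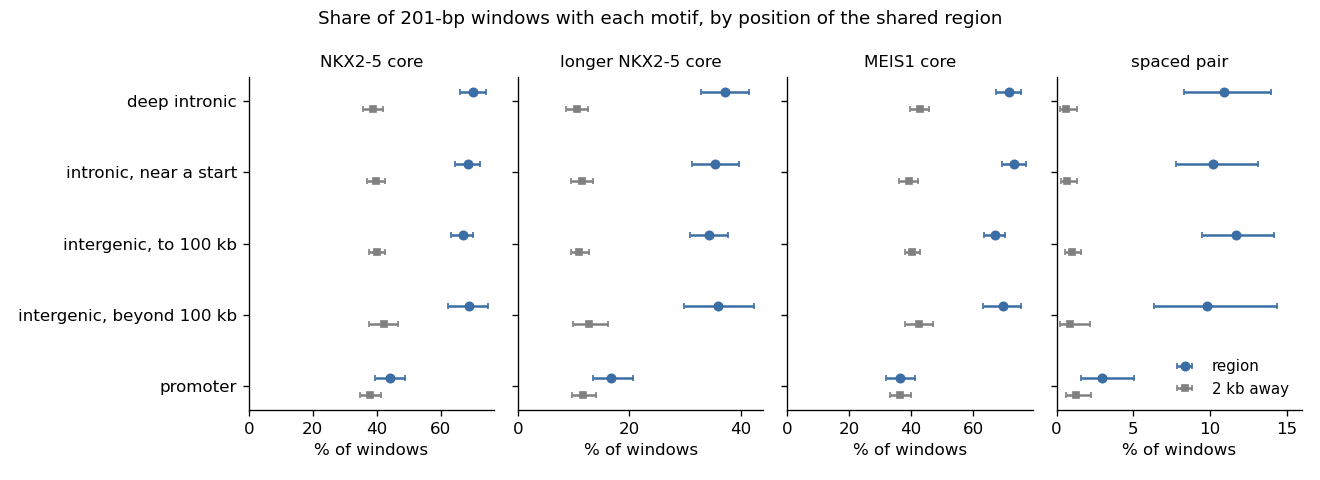
Percent of 201-bp windows (x axes) with each of 4 motifs for shared regions of 5 position classes (rows, blue) and for windows 2 kb to either side (grey), with 95% Clopper-Pearson intervals. The deep intronic regions lie close to the intronic and intergenic classes, and promoters lie lower in all 4 panels.

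Shares in the deep introns were near those of other shared regions outside promoters. Introns within 20 kb of a start had AAGTG in 68.5% (64.4 to 72.4) and TGACA in 73.3% (69.4 to 77.0) of 540 windows, and intergenic regions within 100 kb had them in 66.8% and 67.1% of 762. The spaced pair was in 10.2% and 11.7% of these classes. Promoter regions had AAGTG in 44.0% and TGACA in 36.5% of 436 windows. Over all 2546 shared regions AAGTG was in 64.0%, TNAAGTG in 32.4%, TGACA in 64.7%, GTGNTGACA in 9.54% and AAGTGACA in 2.36%. The GATA, TEAD, E-box and T-box motifs were in 19%, 15.1%, 16.7% and 5.18% of them, and the MEF2 and SRF consensus in 4.36% and 1.06%.

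Host genes were sorted by 8 lists of gene function, and counts were read per Mb of deep intronic sequence, since longer genes offer more of it. Protein-coding genes as a whole had 1.14 regions per Mb (1.04 to 1.24), and 382 of 5699 genes with such sequence (6.70%) were hosts. The list named for the sarcomere, Z-disc and costamere had 12 regions in 11 of 36 genes, or 2.33 per Mb (1.20 to 4.06). That interval overlaps the one of protein-coding genes as a whole. The list is broader than its name, as its leading host, Myh11, is a myosin of smooth muscle. Myh11 and Synpo2, an actin-bundling Z-disc protein (617 in S1 and 452 in S4), were followed by Ldb3. The others of this list were Mylk, Sgcd, Actn2, Neb, Actn1, Svil, Mypn and Dtna, with smaller scores from 145 to 358, and include Neb of the thin filament, Actn2 and Mypn of the Z-disc, and Sgcd and Dtna of the dystrophin complex.

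Cardiac transcription factors and cofactors had 11 regions in 9 of 44 genes, or 2.23 per Mb (1.11 to 4.0). Prdm16, a zinc finger factor, held 3 regions, with 1061, 353 and 197 in S1 and 1112, 311 and 167 in S4. Mkl1, an SRF coactivator, had 1004.7 and 807. Meis2, a close relative of MEIS1, had 522 and 523. Zfpm2, a GATA4 cofactor, had 304 and 405. Other hosts of this list included Nfia, Wwtr1, Rere and Esrrg, with smaller scores from 140 to 218.

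Growth factor signalling had 17 regions in 13 of 73 genes, or 1.60 per Mb (0.933 to 2.56). Bmpr1b, a type I BMP receptor, had 1879 and 1599 in S1 and S4. Lpar3, a lysophosphatidic acid receptor, had 1424 and 1313, and Ror1, a WNT co-receptor, 662 and 851. Extracellular matrix and integrin genes had 15 regions in 10 of 82 genes, or 1.42 per Mb (0.792 to 2.33). Gpc6, a glypican, led with 2386 and 1384, followed by Fbn2, a fibrillin on chromosome 18, with 1344 and 1733, and Adamts2, a procollagen protease, with 465 and 397.

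Ion channels and calcium handling had 18 regions in 13 of 66 genes, or 1.36 per Mb (0.806 to 2.15). After Gja5 and Pde4b came Pde1a, a calmodulin-dependent phosphodiesterase, with 1097 and 1031. Kcnq1, a potassium channel of repolarisation, held 3 regions, with 260, 268 and 191 in S1 and 310, 161 and 143 in S4. Cacna1c, the L-type calcium channel, held 2, near the lower end, with 144 and 143 in S1 and 315 and 198 in S4.

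Small GTPase and G protein regulators had 12 regions in 10 of 70 genes, or 1.17 per Mb (0.602 to 2.04). Sipa1l3 was followed by Asap1 (632 and 525) and Arhgap32 (393 and 366), which are both GTPase-activating proteins. Axon guidance and cell adhesion had 20 regions in 15 of 68 genes, or 1.03 per Mb (0.626 to 1.58). Srgap1 was followed by the Eph receptors Ephb1 (909.8 and 1459) and Epha4 (490.2 and 469). Slit3, a Robo ligand, held 2 regions, with 364 and 183 in S1 and 168 and 159 in S4.

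Neuronal and synaptic genes of great length had the most regions of any list, 34 in 20 of 94 genes, and the lowest density, 0.595 per Mb (0.412 to 0.832), below the interval of protein-coding genes as a whole. By the smaller score Macrod2, Negr1 and Dlgap2, a postsynaptic scaffold (607 and 521), ranked first among them. These genes hold 57.1 Mb of deep intronic sequence, against 5.16 Mb for the sarcomere list. No test was run on the lists.

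**Figure D5:**
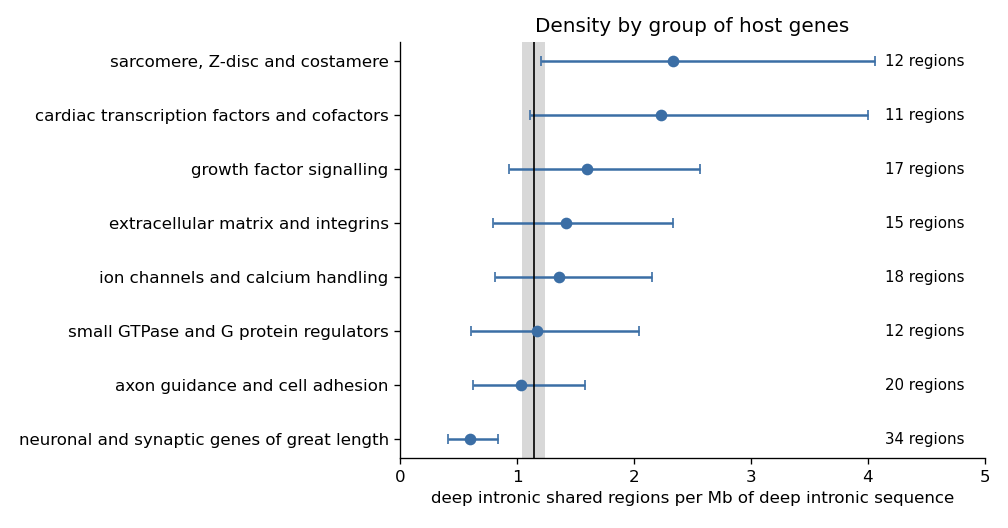
Deep intronic shared regions per Mb of deep intronic sequence (x axis) for 8 lists of host genes (rows), with 95% Poisson intervals and the number of regions, and with all protein-coding genes as the black line and grey band (1.14, 1.04 to 1.24). The sarcomere list has the highest density, 2.33, the intervals of 7 lists reach the band, and neuronal genes at 0.595 lie below it.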

How the data were processed

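NKX2-5 ChIP libraries were made from fixed, sonicated hearts. In the study's methods, BOWTIE placed the reads on mm9 and MACS 1.4 called the peaks, separately for S1 (4418 peaks) and S4 (5441 peaks). The lists that the authors deposited give each peak's start and end in base pairs and a score, read from its values as a p-value on a negative log10 scale times 10. The caller's settings, and whether the Input served as control, are not given in the sources used here. Read numbers were not used, so depth and the precision of a score are unknown.

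Starts were taken as counted from 0 and are printed counted from 1. Positions came from GENCODE M1 on NCBIM37 (mm9). A region inside more than 1 gene took the longest protein-coding one as host. Densities used intronic sequence that met the same position rule. Intervals of shares and densities are exact (confidence level 0.95) and hold for counting error alone. The interval of the median log2 ratio comes from the ranks of the regions.

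The members, gene lists, motifs and rules were chosen with earlier results of these data known. Of 743 symbols in 8 lists, 732 were in the annotation. The named regions are the 8 with the highest smaller score, the 6 hosts with most regions, the 3 leading hosts of each list, the 3 farthest from a start, 2 on either side of the 20 kb limit, the 3 highest with both TNAAGTG and GTGNTGACA, the 3 highest with AAGTGACA, and the 3 lowest. Other hosts were named after their values were seen. Newer symbols came from RefSeq (GRCm38), by synonym. Repeats were measured with 20 32-mers per shared stretch, counted in the assembly.

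The alternatives were a higher score, a stricter overlap, other limits of distance, protein-coding annotation alone, other midpoints, windows of 25 bp, flanks at 10 kb, other transcripts, and each library alone. Introns of up to 1000 kb and regions without repeated 32-mers were added after seeing the data. The procedures were tested on simulated data. Python 3.11.15, numpy 2.4.6, scipy 1.17.1, pandas 2.3.3, pysam 0.24.0 and matplotlib 3.10.9 were used.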

Additional observations from a re-analysis of the deposited data

How the results depend on the processing

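Of 66 alternatives, 44 stayed within the interval of the value reported, or within 1.5 times a count, and 22 moved. Counts, shares and densities have no direction that could turn. The median log2 ratio has one, and it stayed positive in its alternatives. A minimum score of 200 in S1 and S4 left 322 regions and 0.728 per Mb. A limit of 50 kb from a start left 223 regions, 8.76% of shared regions, with 0.995 per Mb and 17.9% in a first intron, and one of 10 kb gave 27.1% of shared regions. With protein-coding annotation alone 21.5% of shared regions were deep intronic. With the shortest transcript 26.8% were in a first intron, and with any transcript 29.0%. In windows of 25 bp to either side AAGTG was in 25.6%, TNAAGTG in 10.9%, TGACA in 30% and GTGNTGACA in 2.22%, as fewer bases were searched. Flanks 10 kb away held TGACA in 39.0%. With each library alone there were 801 to 933 deep intronic peaks, 17.1% to 18.1% of the list. AAGTG was then in 65.4% to 66.8%, TNAAGTG in 31.9% to 34.3% and TGACA in 66.3% to 67.1%. These lists also held unshared peaks, and each midpoint was that of the single peak. The part of either in these shares was not tested. No paired analysis was possible because 1 group was analysed. Unknown depth limits every comparison of scores between the libraries.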

Other observations

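Deep intronic density was lowest on chromosome X, with 5 regions and 0.240 per Mb (exact Poisson interval, 0.0779 to 0.560), against 0.632 to 1.60 on the numbered chromosomes. Among numbered chromosomes it was lowest on chromosome 6, with 19 regions and 0.632 per Mb (0.380 to 0.987), and highest on chromosome 9, with 37 regions and 1.60 per Mb (1.13 to 2.21).

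Repeated 32-mers were rare in the regions, and no other sequence was measured for comparison. All 32-mers taken from 436 of 496 regions (87.9%) occurred once in the assembly. In 1 region, in Disc1, none did, and the median 32-mer occurred 2 times. Among the 436 regions AAGTG was in 69.5% of windows, TGACA in 72.0% and GTGNTGACA in 10.6%.

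Matches of the spaced pair lay on the strand of the host gene in 32 of 54 (59.3%, 45.0 to 72.4), and those of TGACA in 317 of 634 (50%).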
